A study of Arabidopsis thaliana with 18 samples.

Results

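The comparison described here sets mature dry seeds of the *Arabidopsis thaliana* line *ros1-4* against mature dry seeds of its wild type, Col-0, across all genes. Its members are the 3 libraries labelled Col-0 and the 3 labelled *ros1-4* at the mature stage, 6 of the 18 libraries of the series, and the remaining 12 are germinating seeds of the same genotypes at stage II (seed coat rupture) and stage IV (visible radicle). The *ros1-4* line is homozygous for a T-DNA insertion in ROS1 in the Col-0 background and is 1 insertion line. No plant of either genotype was heat-stressed: the plants of both were grown at 23 °C on average, and the sources differ on the temperature before bolting (24 °C by day and 22 °C by night in the paper, 20 °C and 18 °C in the labels). Each library is a biological replicate of RNA from 100 whole dried seeds, so that embryo, endosperm and seed coat are measured together, and a smaller share of a tissue cannot be told apart from less RNA per cell.

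ROS1 is a DNA glycosylase that removes methylated cytosine from DNA and so counters the RNA-directed pathway that places new methylation, and its loss raises methylation at many loci. A mature Arabidopsis seed is mostly embryo, packed with storage proteins (12S cruciferins and 2S albumins), with oil bodies coated by oleosins, and with late embryogenesis abundant (LEA) proteins that protect cells during drying. Its RNA was made during maturation under regulators such as ABI3 and the hormone abscisic acid (ABA), and it is stored until the seed takes up water.

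The measurement was the number of reads per gene, as estimated by the authors with Salmon, and the 6 libraries held 18737706 to 19284211 assigned reads each. Values are given as CPM (the count of a gene scaled to a common library total after TMM scaling), which sets the bulk of genes equal between libraries, with the values of Col-0 replicates 1, 2 and 3 before those of *ros1-4*. Differences are log2 fold changes of *ros1-4* over Col-0 with their standard error (SE), tested with edgeR's two-sided quasi-likelihood test, and a gene was called at a Benjamini-Hochberg adjusted p under 0.05 over the 15441 genes tested. Library correlations on the log2 CPM scale were 0.983 to 0.991 within a genotype and 0.970 to 0.976 between genotypes, and *ros1-4* replicate 3 stood apart from the other two of its group on the second principal component. Without it, 2049 genes were called higher and 1884 lower, where all 6 libraries gave 2135 and 2009. The p-values measure the spread between these replicates, and the sources do not say whether each came from separate plants. Of 5 markers of the mature embryo, 4 were called higher and none lower, while none of 3 pollen markers and 1 of 4 tested leaf markers were called. That marker was RBCS1A, a small subunit of Rubisco, at 35.6, 29.1 and 44.3 CPM in Col-0 against 16.9, 24.4 and 20.7 in *ros1-4*.

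ROS1 itself (AT2G36490, chr2:15307907-15314807, minus strand, TAIR10.1; named DML1 in the annotation) had 120, 117 and 120 CPM in the Col-0 libraries against 75.2, 84.3 and 83.9 in those labelled *ros1-4*. The groups did not overlap, and ROS1 was lower by 0.55 on the log2 scale (SE 0.07, adjusted p = 2.2e-05, edgeR). The means were 119 ± 1.47 and 81.1 ± 5.15 CPM (SD, n = 3), so a good part of the transcript was still counted, and counts summed over the gene do not show which side of the insertion the reads came from. At germination the same gene went the other way, with 256, 273 and 281 counts in Col-0 against 1286, 1256 and 1221 in *ros1-4* at stage II. Why the level was higher at germination in a line with an insertion in this gene was not tested, and *ros1-4* below means the libraries labelled as such.

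In dry seeds of *ros1-4*, 2135 of the 15441 tested genes were called higher (13.8%) and 2009 lower (13.0%), and most of the differences were small. At least 2-fold differences numbered 166 higher (1.08%) and 402 lower (2.6%), and at least 4-fold ones 20 higher (0.13%) and 87 lower (0.563%). The 2 directions held different kinds of genes by abundance, as the plot of differences against mean CPM shows. Among the 89 genes that averaged 1000 CPM or more, 72 were called higher (80.9%) and 6 lower (6.74%), with a median log2 fold change of 0.57. Among the 6340 genes between 1 and 10 CPM, 366 were higher (5.77%) and 745 lower (11.75%), with a median of -0.08. The median CPM of the genes called higher was 33.8, that of the genes called lower was 12.7 and that of all tested genes 10.5. Called genes made up 26.8% of those tested, and 6302 (40.8%) had values that did not overlap between the genotypes. On each of the 5 chromosomes 12.7 to 14.9% of tested genes were called higher and 12.3 to 13.7% lower.

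**Figure D1:**
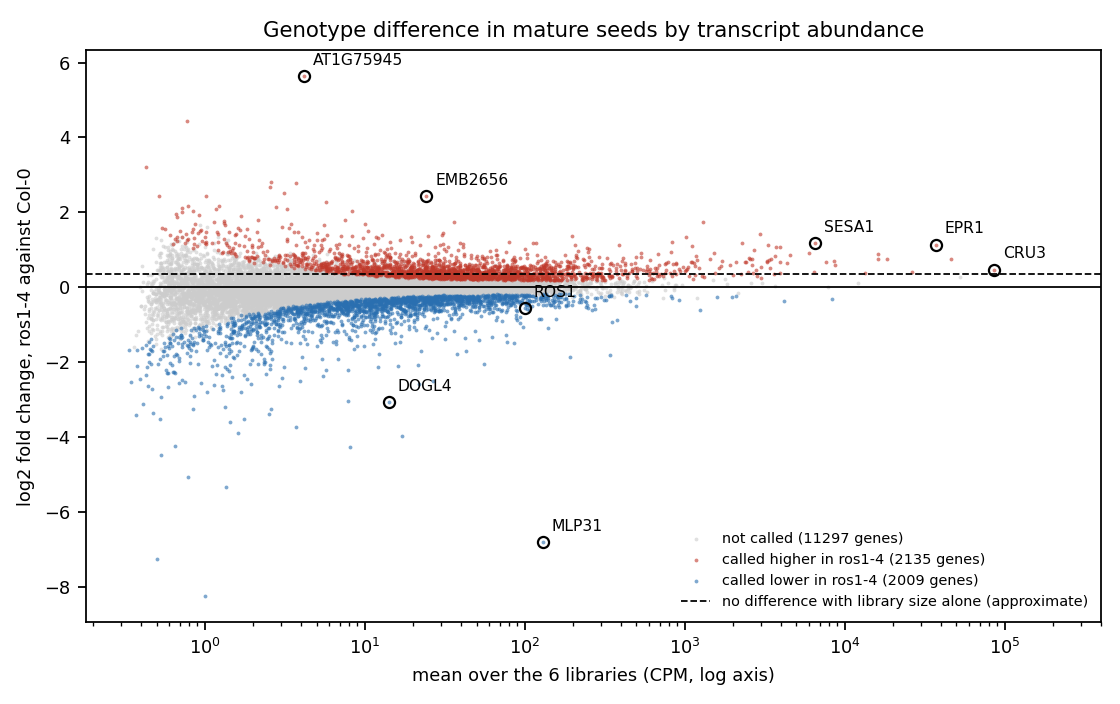
Each point is one of the 15441 tested genes, with its mean CPM over the 6 mature seed libraries on a log axis and its log2 fold change of ros1-4 over Col-0 on the vertical axis, in red if called higher (2135) and in blue if called lower (2009). Of the 89 genes at 1000 CPM or more, 72 are red, and the dashed line at 0.34 marks about where a gene would show no difference with library size alone.

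The split between higher and lower depended on how the libraries were set to a common scale, and a few seed transcripts took a large share of all reads. The 10 most abundant genes held 28.2, 29.5 and 30.4% of the counts in the Col-0 libraries against 36.0, 34.4 and 33.3% in the *ros1-4* libraries. The groups did not overlap and differed by 5.2 percentage points, with an exact two-sided permutation p of 0.1, the smallest that 3 against 3 can give. With library size alone, the median of all genes moved by -0.34 on the log2 scale, and 466 genes were called higher (3.02%) and 7528 lower (48.8%), so that 5.83% of the calls were higher where TMM gave 51.5%. Under all 5 scalings tried (TMM, relative log expression, upper quartile, library size alone, and TMM without the 10 top genes), 466 genes were called higher and 1949 lower (12.6%). Library size alone moves the bulk of genes down, so for falls this is a weak check, and 1949 of the 2009 lower calls stayed. A call higher that is lost with library size alone is a rise relative to the bulk of genes, while a rise in the share of reads was not called. Of the genes named below as higher, the calls of CRU3, PAP85, AT1G54870, ABI5, ABI3, NCED6, AT4G18680, MBD7, F3H, SUS3, TIP3;1, BETA-TIP and AT1G14960 were lost in this way. A lost call is not an absent rise, since with library size alone NCED6 stayed at 0.38, whereas ABI3 fell to -0.03. Of 117 named genes with a call, 76 kept it when the spread was estimated over all 18 libraries in 1 fit.

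The transcripts that a seed stores for its reserves were higher in *ros1-4*. Of 13 storage protein genes, 11 were called higher and none lower, with a median log2 fold change of 0.72 where that of all genes was -0.01, and 9 were called higher under all scalings. All 12 oil body genes were called higher, by 0.36 to 0.85 with a median of 0.55, and 7 of them under all scalings. Of 25 tested LEA genes, 22 were higher and 2 lower, with a median of 0.64, and 17 higher and both lower under all scalings. The 89 genes at 1000 CPM or more, members of these lists among them, had a median of 0.57 and 80.9% called higher. A rise by function was therefore not separated from a rise of abundant transcripts in general. Together the 3 groups took 33.5, 34.5 and 34.5% of the counts in Col-0 against 41.4, 39.1 and 37.9% in *ros1-4*, as shown in the plot of shares by library. Leaving out any 1 library left 11 or 12 storage genes, 12 oil body genes and 20 to 22 LEA genes higher. When the spread of each gene was estimated over all 18 libraries, germination included, 3 storage (SESA1, SESA2 and AT1G03890), 3 oil body and no LEA genes passed.

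**Figure D2:**
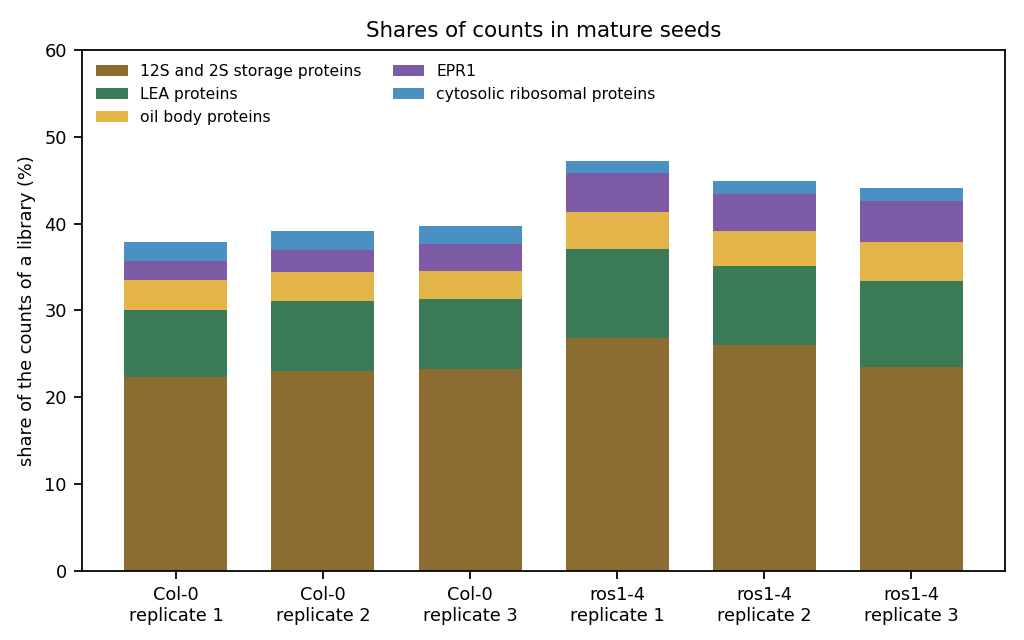
Each stacked bar is 1 mature seed library, 3 of Col-0 and 3 of ros1-4, with the percentage of its counts on storage proteins, LEA proteins, oil body proteins, EPR1 and ribosomal proteins. The ribosomal class, labelled cytosolic in the plot, was picked by words in the descriptions of genes. LEA genes took 7.71 to 8.08% in Col-0 against 9.07 to 10.3% in ros1-4 and oil body genes 3.16 to 3.47% and 4.00 to 4.49%, while ribosomal proteins took 2.05 to 2.24% and 1.34 to 1.52%.

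Among the 2S albumins, small storage proteins rich in sulfur, SESA1 (AT4G27140, chr4:13607329-13608031) had 4085, 4250 and 3671 CPM in Col-0 against 9645, 8361 and 9185 in *ros1-4*. Every *ros1-4* library was above every Col-0 library, and the difference was 1.18 on the log2 scale (SE 0.09, adjusted p = 1.5e-07, edgeR). SESA2 was higher by 1.08 and SESA3 by 0.75, while SESA5, at 0.12 with TMM and -0.22 with library size alone, was not called with TMM. Among the 12S cruciferins, CRU3 had 70348, 71293 and 75257 CPM in Col-0 against 116120, 99097 and 85251 in *ros1-4*, with the *ros1-4* libraries spread widely but all above Col-0. Its log2 fold change of 0.47 (adjusted p = 0.0061, edgeR) fell to 0.13 with library size alone (adjusted p = 0.18). CRA1 was not called, at 0.26 (adjusted p = 0.059, edgeR) with TMM and -0.08 with library size alone, CRU2 was higher by 0.92 and the cruciferin-like AT1G03890 by 1.06.

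OLEO1, the main oleosin, stood at 12106, 12667 and 11475 CPM in Col-0 against 21920, 17678 and 21665 in *ros1-4*. It was higher by 0.76 (SE 0.10, adjusted p = 3.2e-05, edgeR), and it overlaps AT4G25150 in the annotation, so its reads are uncertain by gene where counting ignores strand. OLEO4 was higher by 0.85, the caleosin ATS1 by 0.82 and the sterol dehydrogenase HSD1 by 0.59. Among LEA genes, AT3G15670 had 10690, 11589 and 11759 CPM in Col-0 against 23857, 18336 and 21131 in *ros1-4*, a difference of 0.90 (adjusted p = 8.9e-06, edgeR). The less abundant AT4G36600 differed more, with 556, 574 and 586 against 1593, 1380 and 1413 CPM, or 1.35 (adjusted p = 6.0e-09). The Em proteins GEA6 and EM1, classical targets of ABI5, were higher by 0.67 and 0.71. Both LEA genes called lower, M17 and M10, moved against their list, but each lost its call when 1 library was left out. Without Col-0 replicate 3, M17 was at -0.34 with an adjusted p of 0.055, and without Col-0 replicate 2, M10 was at -0.23 with 0.073 (edgeR). EPR1, a proline-rich extensin-like wall protein outside these lists, was among the most abundant transcripts of all at 18633, 22811 and 27983 CPM in Col-0 against 53268, 47482 and 52156 in *ros1-4*. Its difference was 1.14 (SE 0.13, adjusted p = 7.6e-06, edgeR), and its share of all counts was 2.14 to 3.11% in Col-0 against 4.33 to 4.78% in *ros1-4*. Of the other most abundant genes, the dehydrin gene RAB18, which overlaps AT5G66410, was higher by 0.75, and with TMM the cupin gene PAP85 by 0.40 and AT1G54870 by 0.38.

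Seed maturation genes are known for short elements near the start of transcription, among them the ABA response element core ACGTG and the RY element CATGCA, read by ABI3 and its relatives. The 250 bases before the annotated start of a storage protein, an oleosin and a LEA gene are shown, since these groups moved together. They are read from RefSeq's TAIR10.1 on the strand of the gene, and capitals mark ACGTG and CATGCA on either strand. SESA1 is chr4:13607079-13607328 (plus strand), OLEO1 chr4:12900180-12900429 (plus) and AT3G15670 chr3:5310989-5311238 (minus).
SESA1: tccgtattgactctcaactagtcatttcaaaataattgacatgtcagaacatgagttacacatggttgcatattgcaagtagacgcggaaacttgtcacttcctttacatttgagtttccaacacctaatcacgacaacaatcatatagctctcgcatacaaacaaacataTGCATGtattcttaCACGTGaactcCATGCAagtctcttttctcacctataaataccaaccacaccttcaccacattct
OLEO1: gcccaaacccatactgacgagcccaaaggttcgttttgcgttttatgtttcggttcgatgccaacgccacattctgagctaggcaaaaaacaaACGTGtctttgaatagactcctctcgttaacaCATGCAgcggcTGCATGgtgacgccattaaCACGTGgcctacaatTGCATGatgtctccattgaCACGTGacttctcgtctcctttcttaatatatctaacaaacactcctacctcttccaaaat
AT3G15670: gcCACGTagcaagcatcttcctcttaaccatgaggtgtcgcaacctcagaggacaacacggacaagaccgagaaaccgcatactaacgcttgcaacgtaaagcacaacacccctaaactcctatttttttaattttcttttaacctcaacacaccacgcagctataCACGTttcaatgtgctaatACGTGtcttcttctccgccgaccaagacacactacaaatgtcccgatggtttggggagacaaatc
On both strands together, SESA1 had 2 matches to ACGTG and 2 to CATGCA, OLEO1 had 5 and 3, and AT3G15670 had 3 and none. The palindrome CACGTG, which contains ACGTG on each strand, counts as 2 matches. Within such windows CATGCA stood in 11 of 13 storage genes, 12 of 12 oil body genes and 5 of 25 LEA genes, and ACGTG in 9 of 13, 9 of 12 and 22 of 25. Over the 15329 promoters of tested genes the shares were 6.96% for CATGCA and 23.54% for ACGTG. Among all genes called higher they were 10.2% and 31.6% of 2133 promoters, and among those called lower 6.9% and 24.0% of 2000. For genes called under all scalings they were 18.3% and 44.3% of 465 promoters of higher genes, and 6.96% and 23.65% of 1941 of lower genes. TATAAA, a core promoter motif, stood in 45.2% of all windows, in 46.1% and 45.6% for the genes called higher and lower, and in 43.7% and 45.6% for those called under all scalings. These are counts of letters, and binding was not measured.

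Of 16 tested transcription factor genes of seed maturation, 5 were called higher and 4 lower, with a median of 0.03, and with library size alone 1 was higher and 8 lower. Without Col-0 replicate 3, 1 was lower, and of those called lower, WRI1 (adjusted p of 0.071 to 0.15) and FUS3 (0.076 to 0.13) lost their calls in 5 and 4 of the 6 fits that left out 1 library. HSFA9, a seed-specific heat shock factor, had 161, 174 and 195 CPM in Col-0 against 309, 272 and 289 in *ros1-4*, which is higher by 0.72 (adjusted p = 7.1e-06, edgeR). This gene overlaps AT5G54075. The bZIP factor ABI5 was higher by 0.45 and the B3 factor ABI3 by 0.30 with TMM, whereas ABI3 stood at -0.03 with library size alone. ABI4, an AP2 factor of ABA and sugar responses, was lower at 8.82, 8.74 and 9.28 CPM against 12.9, 16.2 and 14.6 in Col-0, by -0.70 (adjusted p = 0.00028). Its groups did not overlap.

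In ABA metabolism and signalling, 9 of 33 tested genes were called higher and 3 lower, with a median of 0.16, which turned to -0.17 with library size alone, where 1 was higher and 13 lower. Without *ros1-4* replicate 1, 4 were higher. NCED9, an enzyme of the rate-limiting step of ABA synthesis, had 15.1, 14.4 and 13.0 CPM in Col-0 against 6.85, 6.67 and 9.10 in *ros1-4*, lower by 0.91 (adjusted p = 9.1e-05, edgeR), and its relative NCED6 was higher by 0.71. The ABA receptor gene PYL11 was higher, at 2.61, 2.77 and 2.45 CPM in Col-0 against 6.35, 5.69 and 6.87 in *ros1-4*, by 1.27, and the receptor gene PYL13 was lower by 0.75.

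Of 24 tested genes of dormancy and gibberellin, 10 were called lower, 3 higher and 11 not called, with a median of -0.18. Leaving out 1 library gave 7 to 9 lower, and the fit over all 18 libraries gave 6. DOG1, the main dormancy gene of Arabidopsis, was one of the 3 that rose. It had 26.3, 25.0 and 22.1 CPM in Col-0 against 47.6, 38.7 and 47.9 in *ros1-4*, with no overlap, and was higher by 0.87 (SE 0.10, adjusted p = 8.5e-06, edgeR). Its relatives on chromosome 4 differed among themselves. DOGL4 (AT4G18650), known as an imprinted gene whose expression in the endosperm depends on ROS1, had 24.5, 27.8 and 23.57 CPM in Col-0 against 3.58, 2.47 and 2.98 in *ros1-4*. It was lower by 3.07 (SE 0.13, adjusted p = 5.0e-10, edgeR). DOGL3 (AT4G18690) was lower by 1.18, DOGL1 (AT4G18660) by 0.34, and DOGL2 (AT4G18680) was higher by 0.32 with TMM but at -0.02 with library size alone.

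All 4 tested DELLA genes, which encode repressors of gibberellin responses, were lower in *ros1-4*. RGL2, the main DELLA repressor of germination, had 49.4, 45.7 and 42.7 CPM in Col-0 against 14.4, 17.82 and 20.7 in *ros1-4*. The groups were far apart, at a log2 difference of -1.38 (SE 0.11, adjusted p = 2.9e-07, edgeR). RGA1 was lower by 0.64, GAI by 0.54 and RGL3 by 0.23. Of the gibberellin enzymes in the list, GA20OX3 of the synthesis was lower by 0.45 and GA2OX2 of the breakdown by 0.78. Both were named after their values were seen.

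**Figure D3:**
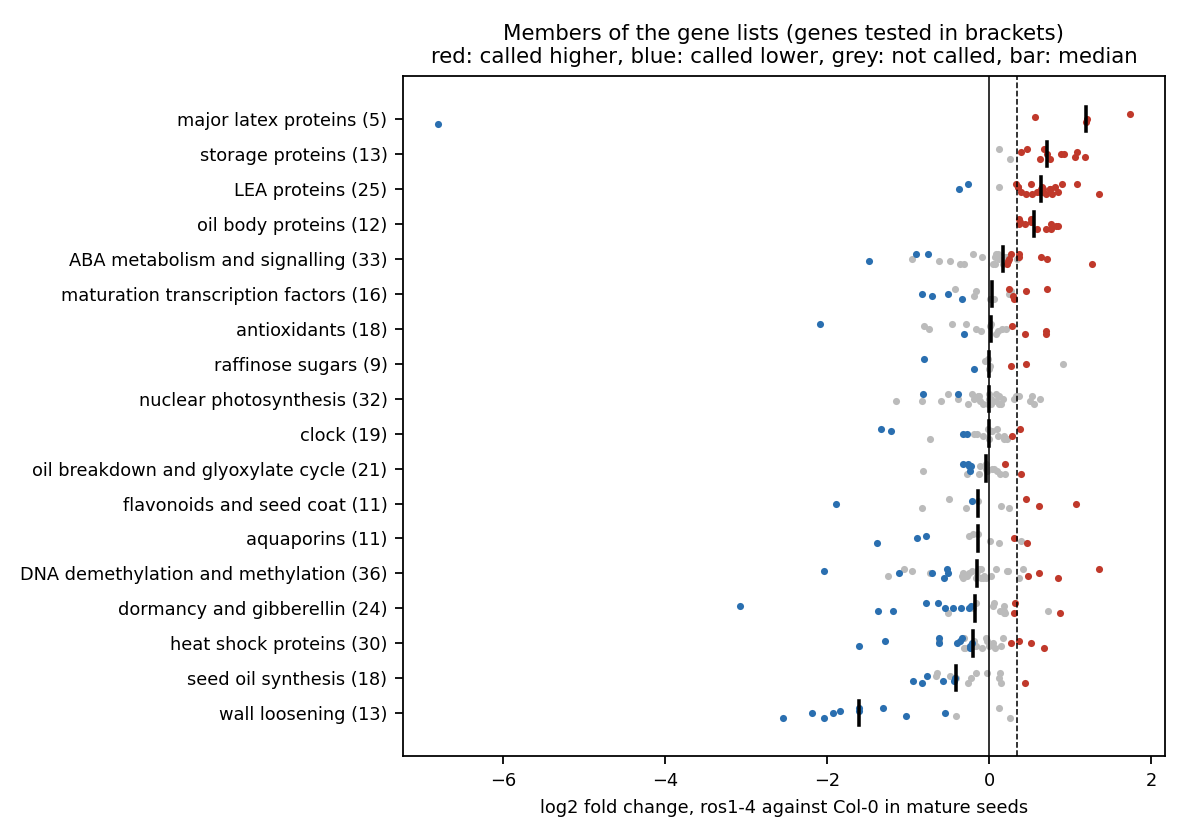
Each point is the log2 fold change of ros1-4 over Col-0 (TMM scaling) of a tested member of 1 of 18 gene lists, red if called higher, blue if called lower and grey if not called, with a black bar at the list's median and a dashed line at 0.34, about where library size alone would put no difference. Storage, LEA and oil body proteins have medians of 0.72, 0.64 and 0.55 and wall loosening genes one of -1.60, and lists whose median lies between 0 and the dashed line turn negative with library size alone.

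Genes described as ribosomal proteins, where called, were mostly lower. This class and the others of this paragraph were picked by words in the reference's descriptions. Descriptions with a word for chloroplast, plastid or mitochondrion were left out of the ribosomal class. The words do not establish that each product is cytosolic. Of 336 tested, 136 were called lower (40.5%) and 14 higher (4.17%), and 131 and 1 under all scalings. The median was a modest -0.20, and leaving out 1 library gave 104 to 145 lower. Their summed share of the counts was 2.24, 2.14 and 2.05% in Col-0 against 1.34, 1.41 and 1.52% in *ros1-4*, with no overlap. Other groups of translation and RNA handling had smaller shares called lower. Of 55 tested translation initiation factor genes, 8 were higher and 8 lower, with a median of 0.03. Of 51 tRNA synthetase genes, which charge tRNAs with amino acids, 9 were lower (17.65%) and 2 higher (3.92%). Over all tested genes the shares were 13.0% and 13.8%. Without Col-0 replicate 3 or *ros1-4* replicate 1, 3 synthetase genes were lower. Of 59 RNA helicase genes 12 were lower (20.3%) and 3 higher (5.1%), and without Col-0 replicate 1 4 were lower and none higher. Splicing factor genes leaned the other way with TMM, 23 of 94 higher and 6 lower, but none was higher and the median turned from 0.15 to -0.19 with library size alone. Without *ros1-4* replicate 1, 13 splicing factor genes were higher. Of 40 histone genes, whose products package DNA, 11 were higher and 2 lower with TMM, 4 and 2 under all scalings. Their share called, 32.5%, was near the 26.8% over all tested genes.

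The list with the largest median difference was wall loosening, made of selected expansins, xyloglucan endotransglucosylases/hydrolases and mannanases, enzymes and proteins that soften cell walls when a radicle or endosperm expands. Of 13 tested genes, 10 were called lower, 9 of them at least 2-fold, and none higher, with a median log2 fold change of -1.60. Under all scalings the same counts were reached, 10 lower and none higher. Over all genes 1949 of the 2009 lower calls stayed too, so this adds little. Most of these transcripts were rare in dry seeds. EXPA15 had 89, 93 and 87 counts in Col-0 against 14, 15 and 18 in *ros1-4*, or a log2 difference of -2.19 (adjusted p = 4.4e-06, edgeR). EXPA10 had 30, 34 and 40 counts in Col-0 against 3, 0 and 11 in *ros1-4*, and EXPA1 was at 2.89, 4.02 and 4.52 CPM against 0.864, 0.46 and 1.43. Both sets of values are separate between genotypes, with log2 fold changes of -2.55 and -2.04. TCH4, a xyloglucan endotransglucosylase, was lower by 1.84 and its relative XTH5 by 1.03. EXPA4 at 0.12, EXPA8 at -0.41 and the mannanase MAN5 at 0.26 were not called. MAN1 (AT1G02310), a mannanase gene that is not in the list, went the other way, with 5.63, 5.83 and 5.03 CPM in Col-0 against 16.6, 14.9 and 14.9 in *ros1-4*, higher by 1.49 (adjusted p = 2.6e-07, edgeR), and it overlaps other genes. Leaving out 1 library left 8 or 9 lower, and with the spread taken over all 18 libraries 8 were lower.

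Of 11 tested genes of aquaporins, the water channels of cell membranes, 2 were called higher, 3 lower and 6 not called, with a median of -0.14. The 3 called lower are channels of the plasma membrane, with PIP3 at 18.4, 15.6 and 16.6 CPM in Col-0 against 5.61, 7.01 and 6.76 in *ros1-4* (log2 fold change -1.38, adjusted p = 8.2e-07, edgeR), PIP2A at -0.89 and PIP1;4 at -0.78. The 2 called higher with TMM are channels of the seed storage vacuole, TIP3;1 by 0.46 and BETA-TIP by 0.31. With library size alone TIP3;1 stood at 0.12 and BETA-TIP at -0.03, and TIP3;1 overlaps another gene.

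**Figure D4:**
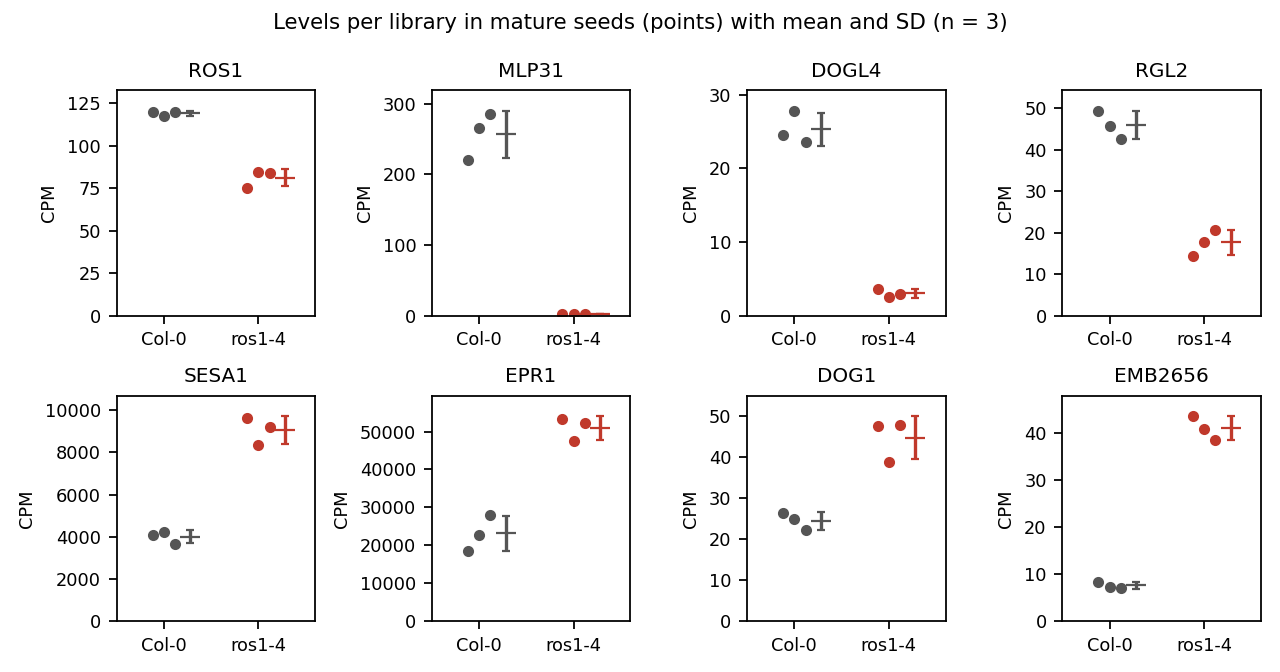
Panels give the CPM (TMM-scaled, linear axes from 0) of 8 genes in each of the 3 Col-0 and 3 ros1-4 mature seed libraries as points, with the mean and SD beside them. SESA1, EPR1, DOG1 and EMB2656 are higher in every ros1-4 library than in any Col-0 library, and ROS1, MLP31, DOGL4 and RGL2 are lower in every one.

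The oil stored by a seed is made during filling and broken down after germination, and genes of both, where called, were mostly lower. For synthesis, 6 of 18 tested genes were lower (33.3%, where all tested genes gave 13.0%) and 1 higher, with a median of -0.42. Without Col-0 replicate 3, 2 were lower. FAD2, the desaturase that makes linoleic acid from oleic acid, had 126, 128 and 115 CPM in Col-0 against 64.1, 60.1 and 67.1 in *ros1-4*. It was lower by 0.95 (SE 0.07, adjusted p = 1.8e-07, edgeR). The plastid enzymes KASI at -0.57, CAC2 at -0.43 and PKP-ALPHA at -0.42 were lower too, while the sucrose synthase SUS3 was higher by 0.44. For breakdown and the glyoxylate cycle, 6 of 21 were lower (28.6%), 2 higher and 13 not called. The median of that list, -0.04, was near the -0.01 of all genes, and 3 were lower whichever Col-0 library was left out. Isocitrate lyase (ICL), abundant in dry seeds, had 9428, 9176 and 9405 CPM in Col-0 against 7880, 7559 and 6935 in *ros1-4*, a difference of -0.32 (adjusted p = 0.0069, edgeR).

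Of 30 tested heat shock genes, 4 were higher, 10 lower and 16 not called, with a median of -0.21, and without Col-0 replicate 2 or 3, 6 were lower. The small heat shock protein gene HSP17.6A was higher at 4324, 3729 and 4065 CPM against 2549, 2882 and 3024 in Col-0, by 0.52. The constitutive HSC70-1 was lower, with 1625, 1516 and 1390 CPM in Col-0 against 1021, 913 and 1010 in *ros1-4*, by -0.62 (adjusted p = 2.5e-05, edgeR). HSP81-2 and HSP81-3 of the HSP90 family were lower by 0.40 and 0.34, and HSP101, needed for heat tolerance, was at -0.03 with an adjusted p of 0.77. Among 18 tested antioxidant genes 4 were higher and 2 lower, and the share called, 33.3%, was near the 26.8% over all tested genes. PER1, a peroxiredoxin of dormant seeds, had 2498, 2616 and 2392 CPM in Col-0 against 4319, 3798 and 4112 in *ros1-4*, and the catalase gene CAT1 107, 107 and 101 against 175, 160 and 176. Both were higher by 0.70, with no overlap between the groups.

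Among 36 tested genes of DNA demethylation and methylation, 4 were higher and 6 lower, ROS1 included, with a median of -0.15. The share called, 27.8%, was near the 26.8% over all tested genes, so the members below are single genes. DME, another demethylase gene, active in the central cell of the female gametophyte, had 14.5, 14.6 and 13.6 CPM in Col-0 against 9.31, 8.45 and 8.36 in *ros1-4*. It was lower by 0.71 (adjusted p = 0.00014, edgeR), where ROS1 was lower by 0.55. In the RNA-directed pathway, RDR2 and DCL3, which make the small RNAs, were lower by 0.51 and 0.52, and the methyltransferases MET1 at -0.32 (adjusted p = 0.1) and DRM2 at -0.13 were not called. IDM3 (AT1G20870) and MBD7, proteins of a complex that helps ROS1 reach its targets, were higher by 0.84 and 0.62, with IDM3 at 14.8, 14.3 and 13.6 CPM in Col-0 against 23.7, 24.3 and 28.4 in *ros1-4*. IDM3 overlaps another gene. The largest fall of the list was that of SUVH4, a histone H3 lysine-9 methyltransferase gene, called lower under all scalings. It had 29, 23 and 31 counts in Col-0 against 6, 6 and 4 in *ros1-4*, a difference of -2.03 (adjusted p = 0.0012, edgeR), and overlaps AT5G13970. The demethylase DML2, called higher, was rare and lost its call without Col-0 replicate 1 (1.12, adjusted p = 0.062), and the CHG methyltransferase CMT3, called lower, lost it without any 1 of 5 libraries, with adjusted p-values of 0.054 to 0.093 (edgeR).

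The largest fall of a well-expressed gene was that of MLP31 (AT1G70840, chr1:26712982-26714069, minus strand), a member of the major latex protein family of small ligand-binding proteins. It had 220, 266 and 285 CPM in Col-0 against 3.02, 1.78 and 2.12 in *ros1-4*, so that few reads remained, and it was lower by 6.80 on the log2 scale (SE 0.15, adjusted p = 3.9e-14, edgeR). Other members of the family rose. AT1G14940 had 600, 588 and 611 CPM in Col-0 against 2362, 1525 and 2116 in *ros1-4*, a difference of 1.74 (adjusted p = 6.4e-08), and its neighbours AT1G14950 and AT1G14960 were higher by 1.19 and 0.56. The neighbour AT1G14930, also called higher, had 494, 488 and 534 CPM against 1375, 927 and 1191. In all, 4 of 5 tested members were higher and 1 lower, under all scalings 3 and 1. Reads of such similar neighbours can be split between copies, so their single values are uncertain. The 5 neighbours of MLP31 on chromosome 1 had at most 0.75 CPM, and MLP34, AT1G70870, AT1G70880 and MLP43 had no read in any of the 6 libraries.

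Further large falls are given gene by gene, and genes beside AT1G26400 are described further below. Of the 4 tested genes of the defence list, 1 was higher and none lower. AT1G26400, of the berberine bridge enzyme family, had 16.2, 13.5 and 16.2 CPM in Col-0 against 0.987, 1.21 and 0.172 in *ros1-4*, or a log2 difference of -4.28 (adjusted p = 2.1e-08, edgeR). GSTF7, a glutathione transferase that responds to salicylic acid, had 45.9, 40.5 and 26.4 CPM against 6.11, 9.08 and 3.61, or -2.58. The cytochrome P450 gene CYP81D11 had 46.6, 46.5 and 42.9 CPM against 8.45, 7.88 and 7.56, or -2.51, and overlaps AT3G28730. The arabinogalactan protein gene AGP31 was lower by 2.39 and NAI2, a protein of endoplasmic reticulum bodies, by 2.21. The jacalin-related lectin gene JAL34 was at -2.22, overlaps AT3G16470 and lost its call with robust dispersion (adjusted p = 0.088). Over whole families the directions were mixed, with 22 of 92 tested P450 genes higher and 16 lower, 20 of 69 glycosyltransferases higher and 8 lower, and 9 of 33 glutathione transferases each way, of which 1 higher and 6 lower by at least 2-fold. With library size alone fewer were higher, and under all scalings the counts were 10 and 16 for the P450 genes, 2 and 8 for the glycosyltransferases and 1 and 9 for the glutathione transferases.

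Large rises were fewer. EMB2656 (chr5:14947227-14952806), a gene needed for embryo development, had 8.43, 7.32 and 7.11 CPM in Col-0 against 43.6, 41.0 and 38.5 in *ros1-4*. The groups were far apart, with a difference of 2.43 (SE 0.10, adjusted p = 1.6e-10, edgeR), but EMB2656 overlaps AT5G37640. EDS16 (AT1G74710, chr1:28070295-28074177), the isochorismate synthase of salicylic acid synthesis, had 16.1, 16.4 and 16.9 CPM in Col-0 against 47.1, 39.8 and 48.6 in *ros1-4*, higher by 1.46 (SE 0.09, adjusted p = 2.1e-08). ATS3, an embryo-specific protein gene, had 18.9, 17.597 and 13.0 CPM against 66.3, 43.1 and 57.1, or 1.75, and AT3G23090, of the microtubule-binding TPX2 family, 4.00, 3.44 and 2.59 against 13.0, 8.97 and 13.2, or 1.80. In both, the lowest *ros1-4* library was well above the highest Col-0 library. Besides MAN1, the remaining genes among the 10 largest rises overlap another gene, and were AT3G60730 at 2.28, CYP71A19 at 2.04, the protease inhibitor gene AT2G38900 at 1.69 and AT5G46040, of the major facilitator transporters, at 1.67.

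A few genes were close to absent in one genotype, and these were chosen after their values were seen. AT1G75945 (chr1:28515245-28515916) had 6, 1 and 3 counts in Col-0 against 112, 132 and 173 in *ros1-4*, which is a log2 difference of 5.64 (SE 0.33, adjusted p = 1.1e-08, edgeR). AT5G33390 had 29, 46 and 52 counts in Col-0 and none in *ros1-4*, at least 11.3-fold lower against a floor of 3 counts per library. AT2G05330 had 17, 25 and 22 counts against none, at least 5.71-fold lower. All 3 kept this difference at germination, where AT1G75945 had 0, 2 and 0 counts in Col-0 against 140, 167 and 180 in *ros1-4* at stage II. AT5G33390 then had 42, 51 and 61 counts against 0, 2 and 1, and AT2G05330 56, 62 and 57 against 1, 0 and 0. TMO6, a Dof transcription factor of the vascular tissue, was different in kind, with 29, 31 and 37 counts in dry Col-0 seeds against 1, 1 and 0 in *ros1-4* (at least 8.64-fold lower), but 348, 352 and 309 against 370, 377 and 330 at stage II. GLU1, the ferredoxin-dependent glutamate synthase, had 1, 0 and 3 counts in Col-0 against 26, 26 and 24 in *ros1-4*, at least 10.5-fold higher, and overlaps AT5G04150.

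Some genes with at least 4-fold differences were neighbours. Of 107 such genes on the 5 chromosomes, 13 had another beside them, and apart from the pair of TPS12 and CYP71A19, which were higher, these groups were lower in *ros1-4*. All of these were named after their values were seen, except those among the largest changes above. Of the indole glucosinolate methyltransferase genes, IGMT2 had 33, 31 and 34 counts against 3, 2 and 3, at least 8.73-fold lower, and IGMT4 112, 109 and 104 against 8, 20 and 20. Of the glutathione transferase genes, GSTU11 had 28, 21 and 16 counts against 1, 0 and 1, at least 5.78-fold lower, and GSTU12 24, 36 and 19 against 2, 1 and 0, at least 7.05-fold lower. AT1G26410, next to AT1G26400, had 74, 59 and 72 counts against 5, 6 and 3. AT2G19310, a gene of the small heat shock family, had 1832, 2036 and 1838 counts against 311, 365 and 435, a log2 fold change of -2.05, and its neighbour AT2G19320 was at -3.98. Similar neighbours share sequence, and reads may have been split between them. How many such genes would lie side by side at random was not tested, so the number is a description only.

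For many genes the genotype difference in dry seeds was not that of germination. A test of the difference itself, mature seeds against the mean of stages II and IV over the 18 libraries, called 1577 of 19939 genes as relatively higher in mature *ros1-4* (7.91%) and 2624 as relatively lower (13.2%). The split depended on scaling, with 37.5% of calls higher for TMM, 53.1% for relative log expression and 4.7% for library size alone. Taken alone, stage II had 4178 called genes of 18521 (22.6%), and stage IV 1564 of 19020 (8.22%). Several clock genes differed in this way, as the plot of the 3 stages shows. CCL, whose transcript follows a daily rhythm, had 14.8, 12.7 and 14.4 CPM in dry Col-0 seeds against 1.67, 2.01 and 1.37 in *ros1-4*, which is a log2 difference of -3.05 (adjusted p = 3.0e-09, edgeR), where stage II gave 2.97 and stage IV 2.36, the latter not called (adjusted p = 0.11). The pseudo-response regulator PRR5 had 23.7, 19.7 and 21.2 CPM against 9.31, 9.37 and 9.22, or -1.21, and GRP7, an RNA-binding protein under clock control, 96.8, 86.6 and 86.2 against 37.4, 38.7 and 30.4, or -1.34. In the 19 tested clock genes 2 were higher and 4 lower in mature seeds, or 31.6% called, near the 26.8% over all tested genes. The 4 lower were so under all scalings, as most falls were. Leaving out 1 library gave 0 to 3 higher and 2 to 5 lower, with 2 lower without Col-0 replicate 1, none higher and 2 lower without Col-0 replicate 3 and 1 higher without Col-0 replicate 2 or *ros1-4* replicate 1. The fit over all 18 libraries gave 1 lower. At stage IV Col-0 replicate 3 stood apart from the other two libraries, with 296 counts of CCL against 20 and 20 and 229 of PRR5 against 13 and 13. Without it the difference between mature seeds and germination was -6.99 for CCL in place of -5.74 and -5.82 for PRR5 in place of -4.47.

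**Figure D5:**
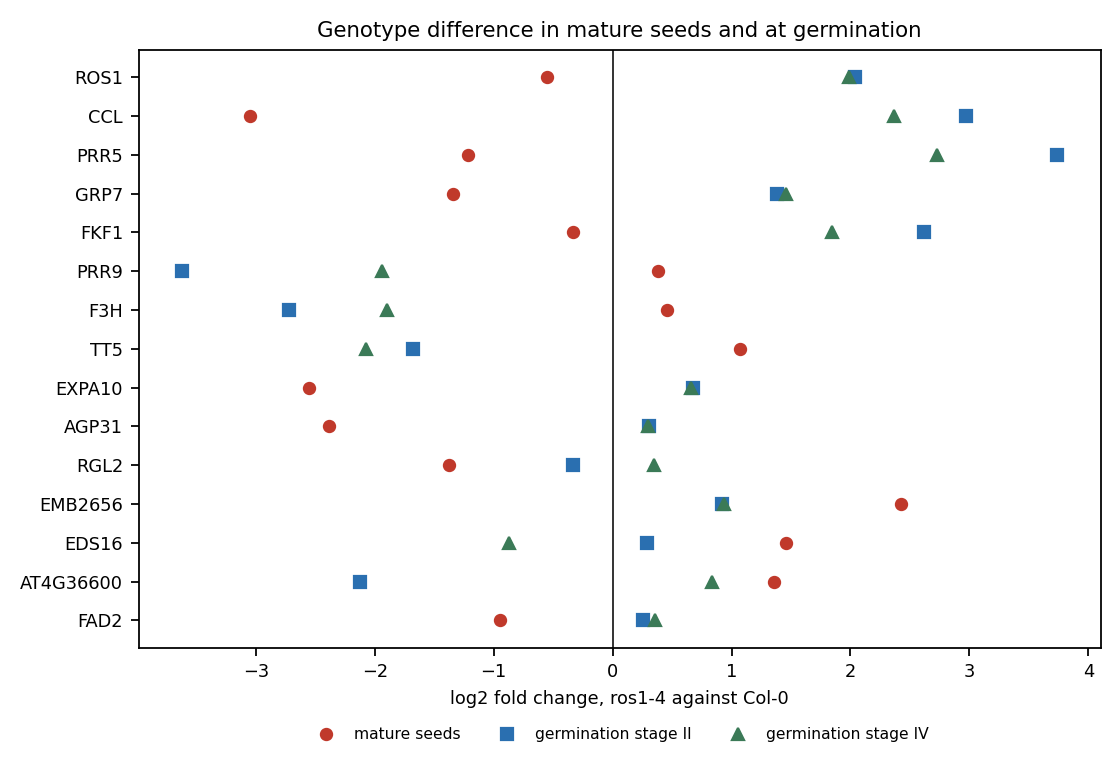
Each symbol is the log2 fold change of ros1-4 over Col-0 for 1 of 15 genes in mature seeds (circle), at germination stage II (square) and at stage IV (triangle), each fitted on its own 6 libraries. ROS1 lies at -0.55 in mature seeds and at 2.04 and 1.99 at germination, and CCL, PRR5 and GRP7 also lie on opposite sides of 0.

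Of the genes low in dry *ros1-4* seeds, EXPA10 and AGP31 were not low at stage II, where their log2 fold changes were 0.67 and 0.31. EXPA10 then had 1762, 1727 and 1552 counts in Col-0 against 3003, 3072 and 3030 in *ros1-4*. AGP31 had 175, 203 and 208 counts against 19, 21 and 50, and at stage II 7707, 9159 and 11307 against 13938, 12830 and 12742. Of 11 tested genes of flavonoids and the seed coat, 3 were higher and 2 lower in mature seeds with TMM, with a median of -0.14, and 1 was higher and 5 lower with library size alone. TT5, a chalcone isomerase, was at 1.07 in mature seeds and differed from germination by 2.93, and F3H differed by 2.75. TT5 lost its call in mature seeds without *ros1-4* replicate 1 (0.79, adjusted p = 0.054, edgeR), and F3H overlaps another gene. The fall of RGL2 in mature seeds differed from germination by -1.401 (adjusted p = 1.7e-05, edgeR over 18 libraries) and that of FAD2 by -1.27 (adjusted p = 2.8e-06), both on the log2 scale.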

How the data were processed

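RNA of mature dry seeds was sequenced by the authors as single-end reads of 50 bases (DNBSEQ), quantified per transcript with Salmon on Araport11 and deposited as estimated counts, normalized neither for depth nor for length, for genes that the authors kept by a filter on TPM and variation across stages. Whether counting used strand is not stated, so genes that overlap another are given as uncertain. Here the estimated counts were added up over the 48268 transcripts, rounded per gene (27587 genes), and every column of the table belonged to a labelled library. The main test was edgeR 4.0.16 (R 4.3.3) on the 6 mature libraries, with TMM, filterByExpr, the quasi-likelihood test and Benjamini-Hochberg adjustment. The difference from germination was a contrast over all 18 libraries. Scripts were tested on simulated data. The methods of the study give DESeq2, used here (1.42.0) as an alternative. Others were further scalings, filters and thresholds, robust dispersion, the replicate block, 1 fit of all 18 libraries, and leaving out each library. The rule for genes named was ROS1, the 10 largest rises and 10 largest falls among called genes that averaged 5 CPM or more and whose groups did not overlap, the 10 most abundant genes, up to 3 called members each way of each list, and the neighbours of MLP31. Further list members (CRU2, HSD1, GEA6, EM1, the DELLA genes besides RGL2, GA20OX3, GA2OX2, AT4G18660, RDR2, DCL3, MET1, DRM2, KASI, CAC2, PKP-ALPHA, HSP101, HSP81-2, HSP81-3, TCH4, XTH5, EXPA4, EXPA8, MAN5, AT1G14960) were named after their values were seen. The members and lists were chosen with earlier results of these data known. Names, positions and promoters are from RefSeq TAIR10.1, which annotates 27392 of the genes with transcript lengths equal to those deposited. Reads carry no molecular identifiers.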

Additional observations from a re-analysis of the deposited data

Results flagged for a closer look

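The results below had a genotype difference in mature seeds that differed from its mean at germination stages II and IV, by edgeR's quasi-likelihood contrast over 18 libraries with Benjamini-Hochberg adjusted p under 0.05. Values are the mature log2 fold change of *ros1-4* over Col-0 minus the mean germination log2 fold change, and a cause was not tested. Over all genes, 1577 were relatively higher in mature seeds and 2624 relatively lower.

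Relatively lower in mature *ros1-4* seeds were ROS1 (DML1 in the annotation) at -2.58 and, among clock-linked genes, CCL at -5.74, PRR5 at -4.47, GRP7 at -2.78, FKF1 at -2.58 and ELF4 at -2.25. At stage IV Col-0 replicate 3 stood apart in CCL and PRR5, and without it they were at -6.99 and -5.82. Among genes of walls and water channels, EXPA10 was at -3.24, AGP31 at -2.71, EXPA1 at -2.60, EXPA15 at -2.45 and PIP3 at -1.16. EXPA10 was at -4.85 to -2.65 when 1 library was left out. Detoxification and defence genes held GSTU11 at -4.66, NAI2 at -2.03, GSTF7 at -1.92, CYP81D11 at -1.91 and JAL34 at -1.72. The transcription factor TMO6 was at -5.21 and the cruciferin CRA1, which was not called in mature seeds alone, at -2.33. Dormancy, ABA and maturation genes included AT4G18690 at -3.46, FUS3 at -1.47, RGL2 at -1.40, NCED9 at -1.27, ABI4 at -1.11, WRI1 at -1.03 and AT4G18680 at -0.67. AT4G18680 and ELF4 were called higher in mature seeds with TMM (0.32 and 0.28), below their 1.66 and 2.45 at stage II. Of the DNA methylation genes SUVH4 was at -2.02, CMT3 at -1.12 and DME at -0.61. In heat shock and metabolism, G-TMT stood at -1.85, GL2 at -1.72, Hsp70-2 at -1.31, FAD2 at -1.27, AT3G09440 at -1.17, FAD3 at -1.01, AT2G19310 at -0.82, RBCS1A at -0.76, AGAL1 at -0.65, HSC70-1 at -0.64 and PSBW at -0.55.

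Relatively higher in mature *ros1-4* seeds were GLU1 at 4.36 and the clock gene PRR9 at 3.14. The flavonoid genes TT5, F3H and TT7 were at 2.93, 2.75 and 2.12. Of seed proteins, AT4G36600 was at 1.98, AT1G14940 at 1.05 and SESA1 at 0.62. EDS16 was at 1.73, EMB2656 at 1.48, AT3G60730 at 2.25 and the ABA receptor gene PYL11 at 1.64. AT1G20870 (IDM3) and MBD7 were at 1.63 and 0.85, ROF1 at 0.66, VTE1 at 0.64, CAT1 at 0.40, SUS3 at 0.59, AIM1 at 0.50, ACX3 at 0.45 and AT3G56310 at 0.36. The split between higher and lower moved with scaling, since 37.5% of the calls were higher with TMM, 53.1% with relative log expression and 4.70% with library size alone. The values of single genes are those with TMM, and library size alone moved the median over all genes from -0.08 to -0.43.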

How the results depend on the processing

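Scaling decided how many genes were called in each direction. In mature seeds, library size alone gave 466 genes higher and 7528 lower where TMM gave 2135 and 2009, a fold of at least 2 gave 166 and 402, and an adjusted p under 0.01 gave 1348 and 1124. Relative log expression gave 2199 and 1949, upper quartile 1759 and 2400, DESeq2 1834 and 1485, and all 18 libraries in one fit 1605 and 2526. Leaving out 1 mature library at a time gave 1542 to 2308 higher and 1381 to 2045 lower, and 2360 of the 4144 calls were kept in each of these fits. For the difference from germination (1577 higher, 2624 lower), library size alone gave 401 and 8127, DESeq2 gave 2634 higher and 2345 lower, and leaving out 1 library gave 1242 to 1694 and 2017 to 2709. The difference in the share of the 10 most abundant genes was 4.47 to 5.84 percentage points without 1 library and 7.55 points for the 50 most abundant. Across the settings 119 tested genes were followed, without the further list members named after their values were seen. With library size alone, 9 of the 119 changed sign, to log2 fold changes of -0.22 for SESA5 and -0.079 for CRA1 (both not called with TMM), -0.033 for ABI3, -0.017 for AT4G18680, -0.029 for SOM, -0.14 for ACX3, -0.071 for AT3G56310, -0.031 for BETA-TIP and -0.054 for ELF4. Under no other setting run did a called gene among the 119 do so. Of 117 named genes that were called, 94 kept their call with library size alone, and 76 with the spread taken from all 18 libraries, where CRU3 (adjusted p = 0.57), OLEO1 (0.48), AT3G15670 (0.21), AT4G36600 (0.061), PER1 (0.35) and ICL (0.20) were among those that lost it in edgeR's test. Leaving out some library ended the call of 20 of the 117. With the replicate number as a block, 1836 genes were higher and 1755 lower, and 5 of the 117 lost their call. Same-numbered libraries of the 2 genotypes correlated at 0.04, -0.15 and -0.10 in their deviations from the group means, less than the best of the other pairings (0.15), so the numbers were not taken to pair them. Counts of a few reads, as for EXPA10, limit the precision of folds of rare genes, and similar copies and overlapping genes could not be separated.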

Other observations

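Some groups of genes had small shares of calls beside the 26.8% over all tested genes (edgeR's quasi-likelihood test). Of 32 tested nuclear photosynthesis genes, none was called higher and 2 lower with TMM, with a median log2 fold change of 0.00, and 12 were lower with library size alone. Of 259 pentatricopeptide repeat genes, which edit and process organelle RNA, 11 were lower and 6 higher, and 2 to 17 were lower with 1 library left out (2 without *ros1-4* replicate 1, 17 without *ros1-4* replicate 2). Of 58 mitochondria-encoded genes 3 were lower and 1 higher, and 0 to 9 were lower with 1 library left out (9 without *ros1-4* replicate 3). Of 53 chloroplast-encoded genes 6 were lower and 1 higher, and 11 were lower without Col-0 replicate 3 or *ros1-4* replicate 3. Other groups had shares nearer to that of all genes. Of 20 tested MADS-box factor genes, which regulate development, 6 were higher and none lower with TMM, but 1 was higher and 3 lower with library size alone. Proteasome subunits had 5 of 37 higher and 3 lower with TMM, and none higher and 24 lower with library size alone.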
